A study of Mus musculus with 12 samples.

Results

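In the liver, blood flows through sinusoids lined by fenestrated endothelial cells that clear waste from the circulation through scavenger receptors and send signals to the neighbouring hepatocytes. Those signals are called angiocrine. The Wnt ligands and R-spondin 3 of the endothelium around the central vein keep pericentral hepatocytes in a Wnt-active state, and VEGF signalling through its receptor KDR maintains the endothelium itself. The 10 genes described here were picked by symbol as genes of this cell layer and its output, with earlier results of these data known. They are the scavenger receptors Stab1 and Stab2, the hyaluronan receptor Lyve1, the lectin Clec4g, the zona pellucida domain gene Oit3, the secreted nuclease Dnase1l3, the ligands Wnt2, Wnt9b and Rspo3, and the VEGF receptor Kdr. All 10 were found among the 55414 genes counted in the series, and all 10 were among the 13857 genes that passed the filter on low counts.

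RNAseq was done on whole livers of female C57BL/6J mice aged 8 to 12 weeks, with 3 mice in each of 4 groups and 1 library per mouse. The first injection was NaCl (0.9%) or FeSO4 (300 mg/kg), the latter an iron overload. The second, 6 h later, was PBS or dexamethasone (DEX, a synthetic glucocorticoid) at 10 mg/kg, and livers were taken 2 h after that, so at 8 h. The groups are named NaCl/PBS, NaCl/DEX, FeSO4/PBS and FeSO4/DEX. Neither knockout nor transgene was used. The libraries held between 16335651 and 23827340 counts. Mitochondrial genes took 4.70% to 7.32% of them. The RNA came from the whole organ, so fewer sinusoidal endothelial cells and less RNA per such cell cannot be told apart for any gene below. Values per mouse are TMM-normalized counts in the order of mouse 1, 2 and 3. A gene was called changed when its edgeR quasi-likelihood FDR, adjusted over all 13857 genes, was 0.05 or less, and LFC is the log2 fold change.

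In the NaCl/PBS livers, the levels of the 10 genes were compared per kb of exon. Dnase1l3 (11.97 ± 1.28 CPM per kb), Clec4g (11.96 ± 1.13) and Oit3 (10.8 ± 0.830, all SD, n = 3) were at the top, with overlapping ranges between neighbours. Kdr (6.54 ± 0.674 CPM per kb), Stab2 (5.76 ± 0.342) and Stab1 (5.31 ± 0.623) followed, again overlapping as neighbours. Lyve1 stood alone below them at 3.05 ± 1.08 CPM per kb. The ligands were lower again, without overlap between neighbours, with Rspo3 at 1.23 ± 0.160, Wnt9b at 0.412 ± 0.0547 and Wnt2 at 0.292 ± 0.0263 CPM per kb. The order of the last 2 rests on the annotated exon length, 4527 bases for Wnt9b and 12563 for Wnt2. By normalized counts Wnt2 (72.7 ± 6.55) was above Wnt9b (37.0 ± 4.91). Checked against the labelled tissue, the 10 hepatocyte markers summed to between 2294227 and 3329840 normalized counts per library and 18 pan-endothelial genes to between 5504 and 8960.

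**Figure D1:**
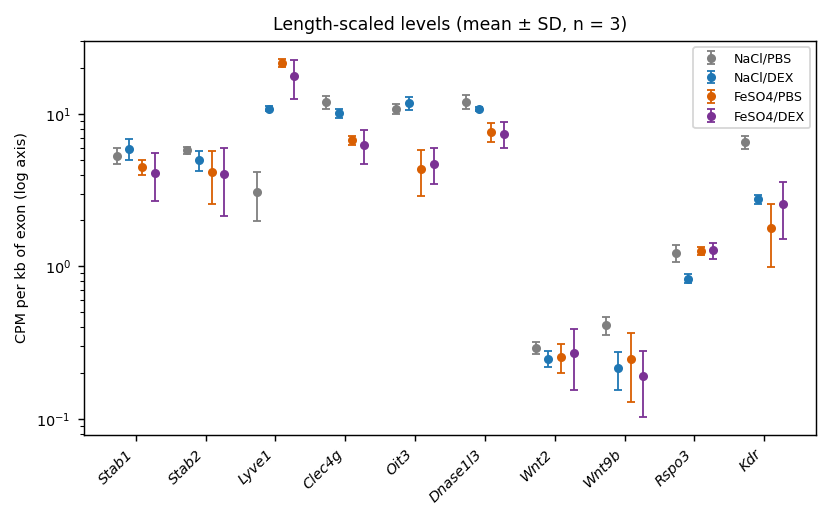
Length-scaled level of each gene (CPM per kb of exon, log axis) in the 4 groups. Points are means and bars are SD (n = 3). Lyve1 moved from 3.05 CPM per kb in NaCl/PBS livers to 21.6 in FeSO4/PBS livers, while Kdr moved from 6.54 to 1.77.

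After treatment this order was different. In NaCl/DEX livers Oit3 (11.8 ± 1.19 CPM per kb), Lyve1 (10.8 ± 0.390), Dnase1l3 (10.8 ± 0.307) and Clec4g (10.1 ± 0.684) formed an overlapping top tier. In FeSO4/PBS livers Lyve1 was highest at 21.6 ± 1.40 CPM per kb and did not overlap Dnase1l3, the next gene, at 7.63 ± 1.09. In FeSO4/DEX livers Lyve1 was again first at 17.6 ± 5.08 CPM per kb, without overlap with Dnase1l3 at 7.43 ± 1.45. Length was the union of all annotated exons, so the order depends on the annotation.

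The FeSO4 effect was taken from FeSO4/PBS against NaCl/PBS livers. Lyve1 rose and Kdr, Oit3, Clec4g and Dnase1l3 fell, which is 1 member higher and 4 lower. Over all genes tested, 27.2% were called higher and 27.3% lower in this comparison, which is the background for these counts. The median LFC of the 10 genes was -0.57 and that of all tested genes -0.02. The ligands Wnt2, Wnt9b and Rspo3 and the receptors Stab1 and Stab2 were not called. The same 1 and 4 genes were higher or lower without overlap between the mice of the groups, as were 29% and 31% of all tested genes.

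**Figure D2:**
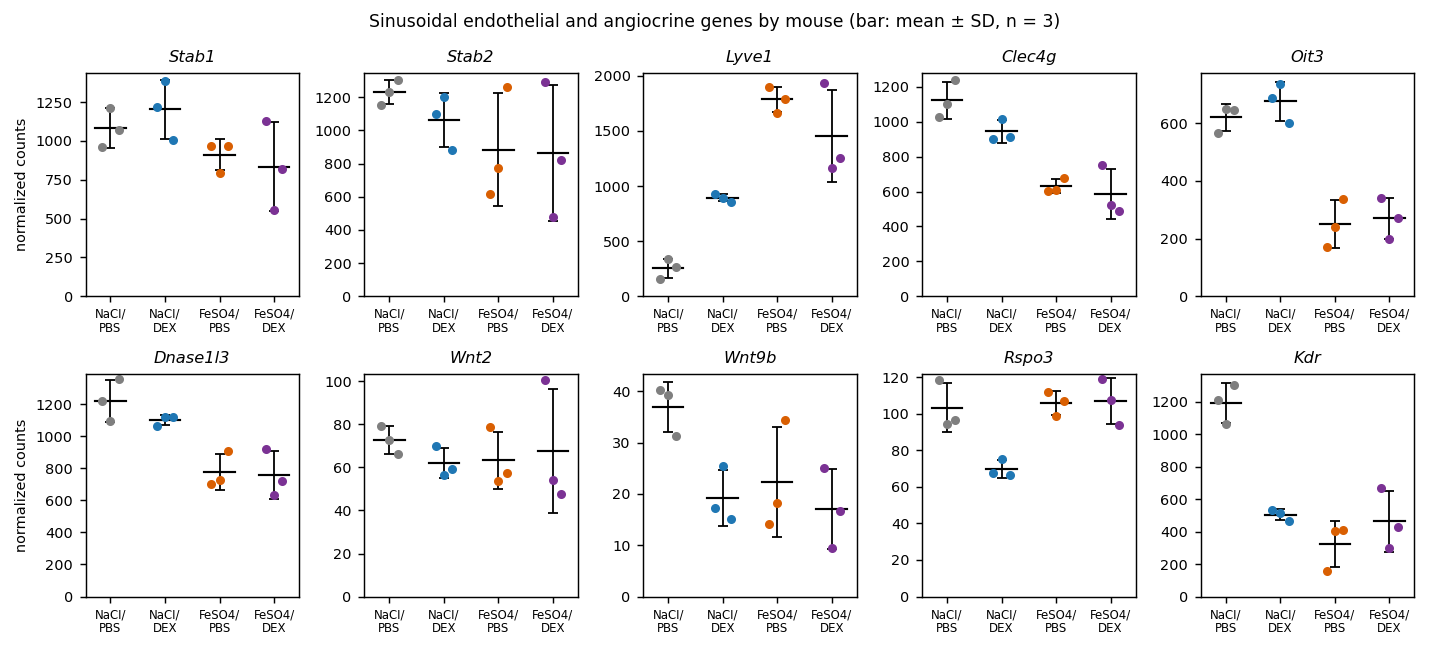
Normalized counts of the 10 genes in each mouse (points), with the group mean and SD (bars, n = 3). Lyve1 is lowest in the NaCl/PBS mice and highest after FeSO4, Kdr is highest in the NaCl/PBS mice, and Oit3, Clec4g and Dnase1l3 are lower in both FeSO4 groups.

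Lyve1 encodes a hyaluronan receptor of sinusoidal and lymphatic endothelium. The NaCl/PBS mice had 159, 336 and 262 normalized counts, and the FeSO4/PBS mice had 1897, 1666 and 1793. The lowest FeSO4/PBS mouse was thus far above the highest control. The change was 7.11-fold (LFC 2.83, SE 0.24, 95% interval 2.32 to 3.34, edgeR FDR 4.83e-07). The gene lies at chr7:110448585-110462460 on the minus strand of GRCm39. Its promoter sequence is shown because Lyve1 was the 1 member that rose after either injection. Printed 5′ to 3′ are the 250 bases before the annotated start at chr7:110462461-110462710 (minus strand, GRCm39), with capitals for a match to AGATAA, a motif of the GATA factors.
Lyve1 promoter: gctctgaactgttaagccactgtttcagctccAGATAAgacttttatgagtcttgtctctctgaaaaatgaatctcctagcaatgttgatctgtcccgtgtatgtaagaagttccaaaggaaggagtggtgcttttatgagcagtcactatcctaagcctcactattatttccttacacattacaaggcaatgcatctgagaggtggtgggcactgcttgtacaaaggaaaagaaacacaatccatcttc

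Kdr encodes VEGFR2, the main signalling receptor for VEGF-A on endothelium. The NaCl/PBS mice had 1211, 1062 and 1306 normalized counts, and the FeSO4/PBS mice had 157, 402 and 412. FeSO4/PBS mouse 1 was lowest, and the groups did not overlap. The mean was 3.70-fold lower (LFC -1.89, SE 0.31, 95% interval -2.55 to -1.22, edgeR FDR 1.66e-04). Kdr spans chr5:76093487-76139884 on the minus strand of GRCm39. Its promoter is set beside that of Lyve1 because these 2 genes moved furthest and in opposite directions. The 250 bases before the start of the canonical transcript, chr5:76139119-76139368 (minus strand, GRCm39), fall in an intron of a longer Kdr transcript, and capitals mark a match to CCGGAA, a motif of the ETS factors, read on the opposite strand.
Kdr promoter: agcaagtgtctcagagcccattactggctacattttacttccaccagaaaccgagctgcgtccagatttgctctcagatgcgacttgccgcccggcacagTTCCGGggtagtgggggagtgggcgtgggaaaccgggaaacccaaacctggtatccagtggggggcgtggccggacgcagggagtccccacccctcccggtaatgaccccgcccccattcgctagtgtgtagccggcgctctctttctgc

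Motifs were searched on both strands in the 250 bases before the start of each of the 10 genes and of 21770 protein-coding genes in all. AGATAA was present before Lyve1 (-218 to -213 from the start) and Wnt2 (-219 to -214), and before 9.6% of all genes. CCGGAA was present before Kdr alone of the 10 (-150 to -145), and before 12.4% of all genes. AGAACA, a short motif bound by the glucocorticoid receptor, was before none of the 10 and 14.3% of all genes, and the full glucocorticoid response element was before none of the 10 and 0.299% of all genes. The 2 printed promoters differed in base composition, with 41.6% G and C before Lyve1 and 61.6% before Kdr.

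Oit3, Clec4g and Dnase1l3 are expressed in the liver mainly by sinusoidal endothelium, and all 3 fell after FeSO4. Oit3, which encodes a secreted zona pellucida domain protein, had 565, 648 and 647 normalized counts in NaCl/PBS mice and 170.4, 241 and 338 in FeSO4/PBS mice. No mouse of one group reached the other. Its mean was 2.49-fold lower (LFC -1.32, SE 0.22, edgeR FDR 1.76e-04).

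Clec4g encodes LSECtin, a lectin receptor that binds glycans of pathogens and of T cells. Its normalized counts were 1029, 1102 and 1239 in NaCl/PBS mice and 604, 610.4 and 676 in FeSO4/PBS mice. The FeSO4/PBS mice lay close together and below every control, 1.78-fold lower on average (LFC -0.84, SE 0.15, edgeR FDR 3.01e-04). Dnase1l3 encodes a secreted nuclease that degrades chromatin in the circulation. Its normalized counts were 1219.7, 1093 and 1354 in NaCl/PBS mice and 704, 726 and 907 in FeSO4/PBS mice. These groups did not overlap either, and the mean was 1.57-fold lower (LFC -0.65, SE 0.14, edgeR FDR 0.00160).

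The stabilins take up modified lipoproteins, matrix fragments and hyaluronan. Stab1 had 961, 1215 and 1073 normalized counts in NaCl/PBS mice and 969, 796 and 971 in FeSO4/PBS mice. The ranges overlapped, with an LFC of -0.25 (95% interval -0.68 to 0.19, edgeR FDR 0.320). Stab2 had 1155, 1231 and 1301 normalized counts in NaCl/PBS mice and 616, 772 and 1264 in FeSO4/PBS mice. FeSO4/PBS mouse 3 lay within the control range and the other FeSO4/PBS mice lay below it. The LFC was -0.48 (95% interval -1.11 to 0.15, edgeR FDR 0.185), and without FeSO4/PBS mouse 3 it was -0.82 with an edgeR FDR of 0.0349. With no filter on low counts Stab2 was called at the same LFC of -0.48 (edgeR FDR 0.00355). Library size as the only scaling gave calls of lower for Stab1 (LFC -0.57, edgeR FDR 0.0394) and Stab2 (LFC -0.79).

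The angiocrine ligands were not called after FeSO4. Rspo3, which amplifies Wnt signalling through LGR receptors, had 119, 94.4 and 96.5 normalized counts in NaCl/PBS mice and 112, 98.7 and 107 in FeSO4/PBS mice. The ranges overlapped and the LFC was 0.03 (95% interval -0.33 to 0.40, edgeR FDR 0.881). Wnt2 had 79.1, 72.9 and 66.0 normalized counts in NaCl/PBS mice and 78.6, 53.9 and 57.4 in FeSO4/PBS mice, which also overlapped (LFC -0.20, 95% interval -0.78 to 0.39, edgeR FDR 0.563). Wnt9b rested on 37 to 56 reads per NaCl/PBS library and 14 to 27 per FeSO4/PBS library. Its normalized counts were 40.3, 39.3 and 31.3 against 14.1, 18.3 and 34.4, so that FeSO4/PBS mouse 3 lay among the controls. The LFC of Wnt9b was -0.75 (95% interval -1.60 to 0.10, edgeR FDR 0.125), and without FeSO4/PBS mouse 3 it was -1.18 with an edgeR FDR of 0.0353. Library size as the only scaling also gave a call of lower for Wnt9b (LFC -1.06, edgeR FDR 0.0400).

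The FeSO4 response is set beside both DEX responses in the plot of LFCs. Intervals excluded 0 for Lyve1, Kdr, Oit3, Clec4g and Dnase1l3 after FeSO4. They did for Lyve1, Kdr, Rspo3 and Wnt9b after DEX in NaCl mice, and for no gene after DEX in FeSO4 mice.

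**Figure D3:**
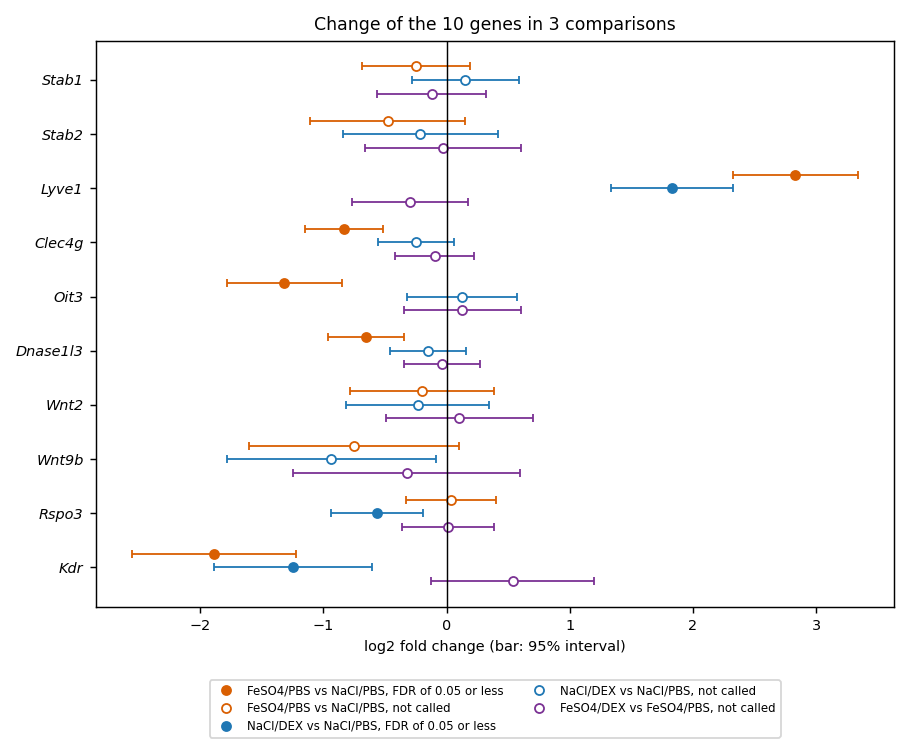
LFC of each gene with its 95% interval after FeSO4, after DEX in NaCl mice and after DEX in FeSO4 mice. Filled points have an edgeR FDR of 0.05 or less. Lyve1 is at 2.83, 1.83 and -0.30 in the 3 comparisons, and Kdr at -1.89, -1.24 and 0.53.

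The DEX effect without iron was taken from NaCl/DEX against NaCl/PBS livers. Lyve1 rose, and Kdr and Rspo3 fell, which is 1 member higher and 2 lower. Over all genes tested, 6.5% were called higher and 7.15% lower. The median LFC was -0.22 for the 10 genes and -0.02 for all tested genes. The NaCl/PBS mice are the controls of both the FeSO4 and this comparison, so the values of the 2 comparisons are not independent.

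Lyve1 had 923, 894 and 859 normalized counts in NaCl/DEX mice, against 159 to 336 in NaCl/PBS mice. The NaCl/DEX mice were close together and all above the controls. The change was 3.55-fold (LFC 1.83, SE 0.23, 95% interval 1.33 to 2.33, edgeR FDR 1.17e-04). Kdr had 534, 512 and 465 normalized counts in NaCl/DEX mice, against 1062 to 1306 in NaCl/PBS mice. No mouse of one group reached the other, and the mean was 2.37-fold lower (LFC -1.24, SE 0.30, 95% interval -1.89 to -0.60, edgeR FDR 0.0129). The call of Kdr depended on 2 libraries, with an edgeR FDR of 0.0501 (LFC -1.17) without NaCl/PBS mouse 3 and 0.0569 (LFC -1.19) without NaCl/DEX mouse 3.

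Rspo3 had 67.6, 75.2 and 66.5 normalized counts in NaCl/DEX mice, against 119, 94.4 and 96.5 in NaCl/PBS mice. The groups did not overlap, and the mean was 1.48-fold lower (LFC -0.57, SE 0.17, 95% interval -0.94 to -0.19). The edgeR FDR of 0.0450 was close to the threshold and went above it in 10 of the 12 fits that left out 1 mouse. It was 0.210 (LFC -0.44), 0.0672 and 0.0868 without NaCl/PBS mouse 1, 2 or 3, and 0.123, 0.0786 and 0.135 without NaCl/DEX mouse 1, 2 or 3. It was 0.0508 and 0.0600 without FeSO4/PBS mouse 2 or 3, and 0.0674 and 0.0599 without FeSO4/DEX mouse 2 or 3. It was also above the threshold with DESeq2 size factors (0.0555), with no filter on low counts (0.161), with the libraries of the comparison alone (0.0554) and with the replicate number as a block (0.0661).

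The other ligands and receptors were not called after DEX in NaCl mice. Wnt9b had 17.2, 25.4 and 15.1 normalized counts against 40.3, 39.3 and 31.3, below the controls without overlap, yet with an edgeR FDR of 0.145 (LFC -0.93, 95% interval -1.79 to -0.08). Wnt2 had 69.8, 56.4 and 59.4 normalized counts, which overlapped the controls (LFC -0.24, 95% interval -0.82 to 0.35). Clec4g had 902, 1019 and 915 normalized counts, all below the lowest control of 1029, with an edgeR FDR of 0.303 (LFC -0.25, 95% interval -0.56 to 0.06). Stab1, Stab2, Oit3 and Dnase1l3 overlapped between the groups, with LFCs between -0.21 and 0.15. Of the 10 genes, 4 were lower without overlap and 1 higher, where 20.3% and 17.6% of all tested genes were.

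Oit3 was called after FeSO4 and not after DEX in NaCl mice, and the difference between these responses was not tested. In NaCl/DEX mice Oit3 had 689, 737 and 602 normalized counts, within and above the range of the controls (LFC 0.13, 95% interval -0.32 to 0.57), whereas all FeSO4/PBS mice lay at 338 or below.

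The DEX effect under iron overload was taken from FeSO4/DEX against FeSO4/PBS livers. None of the 10 genes was called by edgeR, where 0% of the 13857 tested genes were called higher and 0% lower. At an unadjusted p under 0.05, 900 of all tested genes (6.49%) and 0 of the 10 were found. DESeq2 called 5 genes higher and 5 lower over all tested genes, and 0 of the 10. The median LFC was -0.03 for the 10 genes. All 10 overlapped between the groups, where 4.45% of all tested genes were higher and 4.85% lower without overlap.

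Lyve1 had 1934, 1168 and 1256 normalized counts in FeSO4/DEX mice, with mouse 1 above and the others below the FeSO4/PBS range of 1666 to 1897. Its LFC was -0.30 (95% interval -0.76 to 0.17, edgeR FDR 0.828). Kdr had 669, 299 and 427 normalized counts in FeSO4/DEX mice, against 157, 402 and 412 in FeSO4/PBS mice. The ranges overlapped, and the LFC of 0.53 had a 95% interval of -0.13 to 1.195 (edgeR FDR 0.794). Rspo3 had 119, 107 and 93.9 normalized counts, which covered the FeSO4/PBS range, with an LFC of 0.01 (95% interval -0.36 to 0.39). For the other 7 genes the LFC lay between -0.33 for Wnt9b and 0.13 for Oit3. The intervals do not exclude a change of modest size, since the widest, that of Wnt9b, ran from -1.25 to 0.59.

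Whether DEX acted differently in FeSO4 and NaCl mice was tested as an interaction. It was lower for Lyve1, with a difference of LFCs of -2.13 (SE 0.32, 95% interval -2.81 to -1.45, edgeR FDR 0.00139). It was higher for Kdr, with a difference of 1.78 (SE 0.43, 95% interval 0.86 to 2.6997, edgeR FDR 0.0249). Over all genes tested, 2.99% were called higher and 3.2% lower. The 2 DEX responses started from different levels. Lyve1 was at 1786 ± 116 normalized counts in FeSO4/PBS livers, already above the 892 ± 32.2 of NaCl/DEX livers. Kdr was at 324 ± 144 in FeSO4/PBS and 504 ± 35.0 in NaCl/DEX livers. The part of these starting levels in the differences was not tested. The Lyve1 call held in each of the 18 other fits run. For Kdr the call was lost in 7 of the 12 fits that left out 1 mouse, with edgeR FDRs of 0.0584 and 0.0658 without NaCl/PBS mouse 1 or 3, 0.050004, 0.0531 and 0.0657 without NaCl/DEX mouse 1, 2 or 3, and 0.0655 and 0.0505 without FeSO4/DEX mouse 1 or 3. Rspo3 was not called, with a difference of 0.58 (95% interval 0.05 to 1.11, edgeR FDR 0.199). For the remaining 7 genes the difference lay between -0.28 for Stab1 and 0.61 for Wnt9b.

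The iron effect in DEX-treated mice was taken from FeSO4/DEX against NaCl/DEX livers. Lyve1 and Rspo3 were higher, and Oit3, Clec4g and Dnase1l3 were lower, against 22.4% of all genes higher and 20.9% lower. Oit3 had 340.3, 199.8 and 271 normalized counts in FeSO4/DEX mice against 602 to 737 in NaCl/DEX mice. Every FeSO4/DEX mouse was below every NaCl/DEX mouse (LFC -1.31, SE 0.22, edgeR FDR 2.53e-04). Clec4g (LFC -0.68, SE 0.15, edgeR FDR 0.00194) and Dnase1l3 (LFC -0.54, SE 0.14, edgeR FDR 0.00797) were lower without overlap as well. Of the 10 genes, 2 were higher and 3 lower without overlap, as were 28.8% and 27.1% of all tested genes.

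Lyve1 was 1.63-fold higher in FeSO4/DEX than in NaCl/DEX livers (LFC 0.71, SE 0.22, edgeR FDR 0.0187). The edgeR FDR of Lyve1 was 0.115 (LFC 0.44) without FeSO4/DEX mouse 1, 0.0575 (LFC 0.68) without NaCl/DEX mouse 3 and 0.0806 (LFC 0.52) with library size as the only scaling. Rspo3 was 1.53-fold higher (LFC 0.61, SE 0.18, edgeR FDR 0.0120). The edgeR FDR of Rspo3 was 0.0522 (LFC 0.52) without FeSO4/DEX mouse 1, 0.0606 with no filter on low counts and 0.0786 with library size as the only scaling. Stab1 was just outside the call, with an LFC of -0.52 (95% interval -0.96 to -0.09) and an edgeR FDR of 0.0513, and was called without NaCl/DEX mouse 3 (-0.64, edgeR FDR 0.0384), FeSO4/PBS mouse 1 (-0.56, 0.0392) or FeSO4/DEX mouse 1 (-0.81, 0.00457). It was also called under 5 of 7 other settings, with an FDR of 0.0332 by DESeq2, and an edgeR FDR of 0.0464 with DESeq2 size factors, 0.0489 with at least 10 counts in every library, 0.0176 with library size alone (LFC -0.71) and 0.00106 with no filter on low counts. Kdr did not separate these groups, with 299 to 669 normalized counts against 465 to 534 (LFC -0.11, 95% interval -0.76 to 0.54).

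The 10 genes varied together among the FeSO4/DEX mice. Mouse 1 of that group had the highest normalized count for 10 of the 10 genes, mouse 2 the lowest for 7 and mouse 3 the lowest for 3. The 18 pan-endothelial genes summed to 8960, 5504 and 7108 normalized counts in the same mice. This order was not particular to endothelial genes, since markers of Kupffer cells, the resident macrophages, summed to 8767, 5527 and 6591. The hepatocyte markers did not have it, at 3262060, 3329840 and 3297938. The share of all tested genes that were highest in mouse 1 was not counted. Mitochondrial genes took 4.86%, 7.32% and 6.42% of the counts. The median coefficient of variation of the 10 genes in FeSO4/DEX livers was 31.6% for normalized counts and 16.4% for reads per 1000 pan-endothelial reads, and it was lower on the second scale for 9 genes. The medians on these scales were 10.5% and 10.1% in NaCl/PBS livers, 8.53% and 9.24% in NaCl/DEX livers, and 17.7% and 20.03% in FeSO4/PBS livers.

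Levels relative to the pan-endothelial genes are given as a description. The sum of the 18 genes averaged 7148 normalized counts in NaCl/PBS livers, 6842 after DEX alone, 7244 after FeSO4 alone and 7191 after both. On this scale Lyve1 went from 35.1 ± 11.9 reads per 1000 pan-endothelial reads in NaCl/PBS livers to 131 ± 9.02 after DEX alone, 249 ± 40.7 after FeSO4 alone and 202 ± 21.7 after both. Kdr went from 167 ± 15.7 to 73.8 ± 2.44, 43.6 ± 16.6 and 63.0 ± 10.5 in the same order.

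Oit3 was at 86.7 ± 3.93, 98.9 ± 4.96, 33.9 ± 7.78 and 37.5 ± 1.02 reads per 1000 pan-endothelial reads, in the same order of groups. Its spread in FeSO4/DEX livers was thus small on this scale, with 38.0, 36.3 and 38.1 in the 3 mice. Lyve1 per mouse was at 216, 212 and 177 in FeSO4/DEX livers and at 296, 228 and 223 in FeSO4/PBS livers.

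**Figure D4:**
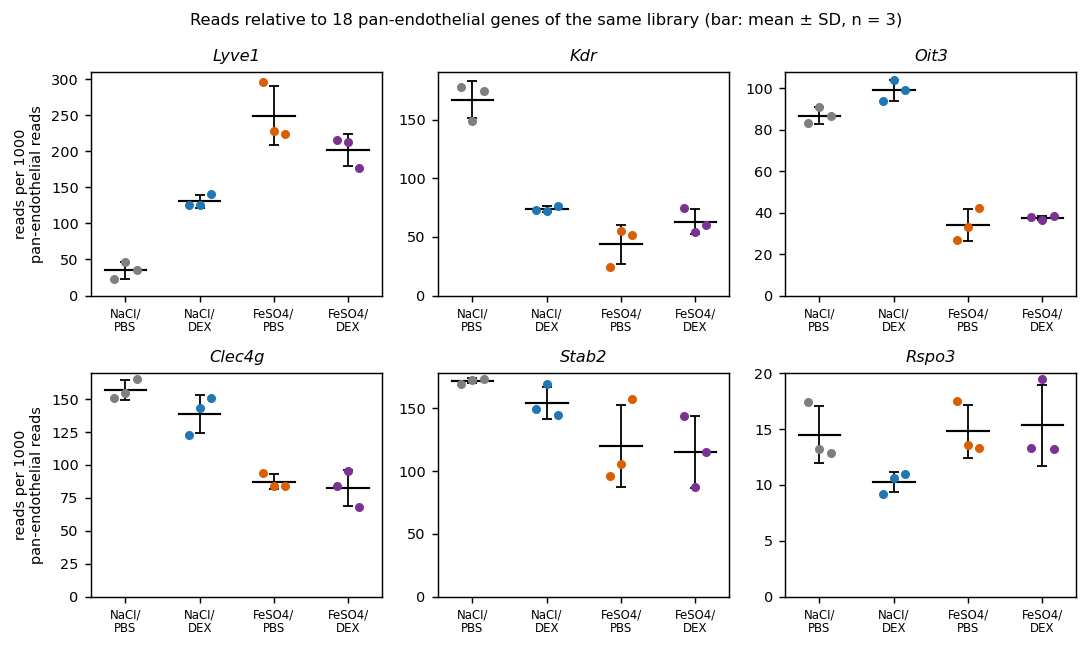
Reads of 6 of the genes per 1000 reads of 18 pan-endothelial genes in the same library, by mouse (points) with the group mean and SD (bars, n = 3). The mean of Lyve1 is 35.1 in NaCl/PBS and 249 in FeSO4/PBS livers, that of Kdr is 167 and 43.6, and the FeSO4/DEX values of Oit3 lie between 36.3 and 38.1.

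The pan-endothelial genes moved in both directions. After FeSO4, 4 of the 18 rose, 5 fell and 9 were not called, with a median LFC of -0.17. For this list and those below, the shares over all tested genes were 27.2% higher and 27.3% lower after FeSO4. They were 6.5% higher and 7.15% lower after DEX in NaCl mice. Pecam1, a general endothelial adhesion molecule, was at 516 ± 42.8 normalized counts in NaCl/PBS and 452 ± 39.9 in FeSO4/PBS livers (LFC -0.19, 95% interval -0.55 to 0.17, edgeR FDR 0.352). Cdh5, which encodes VE-cadherin, rose from 731 ± 101 to 1486 ± 162 (LFC 1.02, SE 0.19, edgeR FDR 4.57e-04). Nos3, the endothelial nitric oxide synthase, rose (LFC 2.57, SE 0.20, edgeR FDR 2.36e-07), and the transcription factor Sox18 fell from 102 ± 17.7 to 4.99 ± 1.11 normalized counts (LFC -4.30, SE 0.34, edgeR FDR 3.15e-07). After DEX in NaCl mice Nos3 rose (LFC 1.01), and Sox18 (LFC -1.57) and the tight junction gene Cldn5 (LFC -2.34) fell.

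Of 9 tested other sinusoidal endothelial genes, 0 rose, 7 fell and 2 were not called after FeSO4, with a median LFC of -0.89. The shares over all tested genes were 27.2% higher and 27.3% lower. Kupffer cell markers fell as well in this comparison (9 of 11), and the part of Kupffer cells in these falls was not tested. Gpr182, an endothelial scavenger of chemokines, fell by 1.96 on the log2 scale (SE 0.21, edgeR FDR 4.88e-06), from 609 ± 47.5 to 157 ± 60.7 normalized counts. Fcgr2b, an inhibitory Fc receptor that clears immune complexes in sinusoids, fell by 1.29 (SE 0.21, edgeR FDR 1.57e-04). Gata4, the transcription factor that specifies sinusoidal endothelium and also acts in stellate cells, was not called after FeSO4 (LFC -0.38, 95% interval -0.94 to 0.18, edgeR FDR 0.235). Gata4 fell after DEX in NaCl mice from 301 ± 20.7 to 91.0 ± 15.1 normalized counts (LFC -1.72, SE 0.28, edgeR FDR 7.82e-04). Maf, another transcription factor of these cells, rose after DEX in NaCl mice (LFC 1.09, SE 0.15, edgeR FDR 3.03e-04). In that comparison 1 of the 9 rose and 2 fell.

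Around Kdr, 8 VEGF ligands and receptors were tested, of which 2 rose and 1 fell after FeSO4. Of all tested genes, 27.2% rose and 27.3% fell. Nrp1, a VEGF coreceptor, rose from 1294 ± 174 to 3136 ± 679.8 normalized counts (LFC 1.28, SE 0.20, edgeR FDR 1.41e-04). Flt1, which encodes VEGFR1, rose by 0.90 on the log2 scale (SE 0.19, edgeR FDR 0.00115). Kdr and Flt1 moved in opposite directions after FeSO4. None of the 8 was called after DEX in NaCl mice by edgeR.

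**Figure D5:**
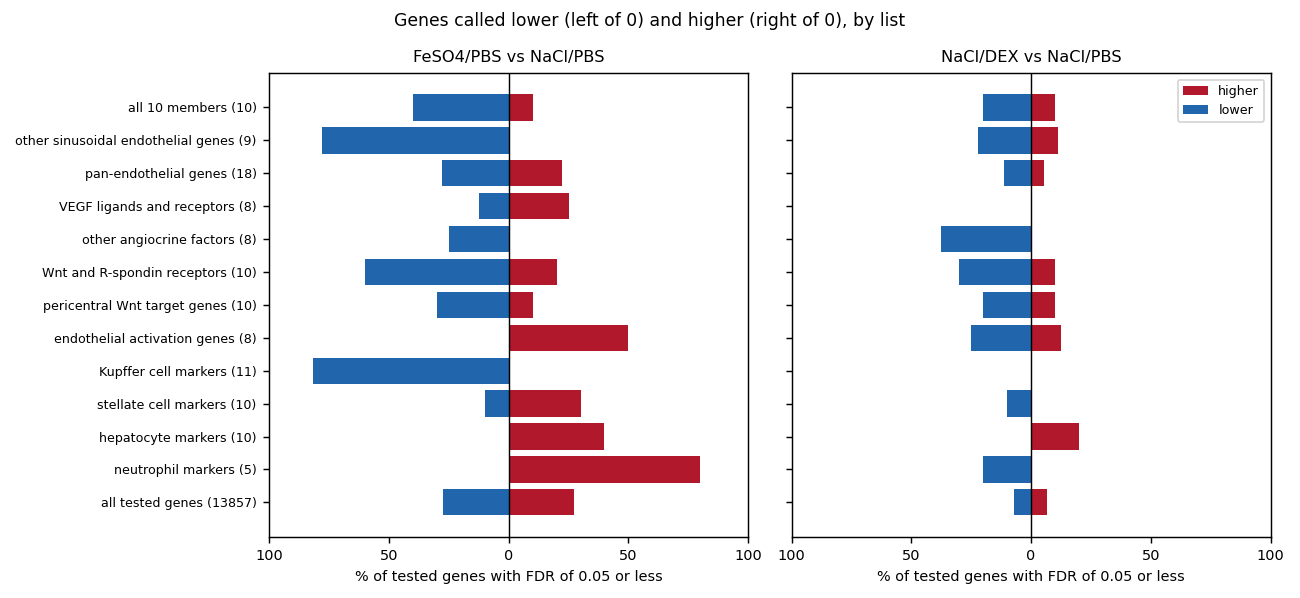
Share of the tested genes of each list (number in brackets) called higher (right of 0) or lower (left of 0) by edgeR after FeSO4 (left panel) and after DEX in NaCl mice (right panel), with the share over all tested genes in the last row. After FeSO4, 7 of 9 other sinusoidal endothelial genes and 9 of 11 Kupffer cell markers were lower, and 4 of 5 neutrophil markers were higher.

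Next to the Wnt2, Wnt9b and Rspo3 ligands stand their receptors and their targets in pericentral hepatocytes. Of 10 Wnt and R-spondin receptor genes, 2 rose and 6 fell after FeSO4, and 1 rose and 3 fell after DEX in NaCl mice. The shares over all tested genes were 27.2% and 27.3% after FeSO4, and 6.5% and 7.15% after DEX. LFCs of the list ran from -3.08 to 0.63 after FeSO4 and from -2.03 to 1.21 after DEX. Its summed normalized counts were 6644 to 7361 in NaCl/PBS, 5858 to 7679 in FeSO4/PBS and 8318 to 9222 in NaCl/DEX livers. Lgr5, an R-spondin receptor and itself a Wnt target, had 192 ± 23.0 normalized counts in NaCl/PBS livers, 47.2 ± 27.9 after DEX alone, 23.2 ± 13.0 after FeSO4 alone and 34.9 ± 5.73 after both. Both falls were called (LFC -3.08, edgeR FDR 1.83e-05 after FeSO4, and LFC -2.03, edgeR FDR 0.00152 after DEX). Rnf43, a ubiquitin ligase that removes Wnt receptors and is inhibited by R-spondins, fell from 523 ± 36.0 to 99.96 ± 38.5 after FeSO4 (LFC -2.38) and to 149 ± 34.1 after DEX (LFC -1.82).

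Of 10 tested pericentral Wnt target genes, 1 rose and 3 fell after FeSO4, and 1 rose and 2 fell after DEX in NaCl mice. Over all tested genes 27.2% rose and 27.3% fell after FeSO4, and 6.5% and 7.15% did after DEX. The median LFC of the list was -0.07 after FeSO4 and -0.02 after DEX, with 6 and 7 genes not called. Tbx3, a transcription factor of pericentral hepatocytes, had 587 ± 141 normalized counts in NaCl/PBS livers, 98.8 ± 30.9 after DEX alone, 112 ± 31.8 after FeSO4 alone and 91.9 ± 18.2 after both. Its LFC was -2.39 after FeSO4 and -2.57 after DEX. Axin2, a feedback inhibitor of Wnt signalling, fell by 1.56 after FeSO4 (SE 0.28, edgeR FDR 3.71e-04) and by 1.05 after DEX (SE 0.27, edgeR FDR 0.0187). The call of Axin2 after DEX was lost without NaCl/PBS mouse 2 or 3 (edgeR FDR 0.0616 and 0.0783) and without NaCl/DEX mouse 2 or 3 (0.0569 and 0.0838).

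Other angiocrine factors were tested as 8 genes, of which 0 rose and 2 fell after FeSO4 and 0 rose and 3 fell after DEX in NaCl mice. Of all tested genes, 27.3% fell after FeSO4 and 7.15% after DEX. The median LFC of the 8 genes was -0.05 after FeSO4 and -0.57 after DEX. Dll4, an endothelial Notch ligand, fell after both injections (LFC -1.93 after FeSO4, edgeR FDR 3.79e-04, and LFC -1.36 after DEX, edgeR FDR 0.0144). Leaving out NaCl/PBS mouse 3 gave an edgeR FDR of 0.0928 for Dll4 after DEX, and leaving out NaCl/DEX mouse 1 or 3 gave 0.0576 and 0.0625. Bmp2, an endothelial inducer of hepcidin in hepatocytes, fell from 504 ± 2.93 normalized counts to 277 ± 102 after FeSO4 (LFC -0.87, edgeR FDR 0.00306) and to 272 ± 38.0 after DEX (LFC -0.89, edgeR FDR 0.0113, and 0.0591 without NaCl/DEX mouse 3). Among 8 tested endothelial activation genes 4 rose and 0 fell after FeSO4. Selp, the leukocyte adhesion molecule P-selectin, rose from 19.0 ± 3.32 to 77.8 ± 13.4 normalized counts (LFC 2.04, edgeR FDR 4.00e-05).

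Markers of other cells were looked at in the same comparison, in which 27.2% of all tested genes rose and 27.3% fell. Of 11 Kupffer cell markers, resident macrophages that share the sinusoid, 9 fell and 0 rose after FeSO4, among them Marco (LFC -1.81) and Csf1r (LFC -1.16), and their sum ranged from 11030 to 12799 normalized counts in NaCl/PBS and from 6578 to 7522 in FeSO4/PBS livers. Of 5 tested neutrophil markers 4 rose, Retnlg most (LFC 3.70), and their sum ranged from 112 to 289 in NaCl/PBS and from 722 to 882 in FeSO4/PBS livers. Of 10 stellate cell markers 3 rose and 1 fell, with sums of 7502 to 7766 and 9010 to 11651. Of 10 hepatocyte markers 4 rose and 0 fell, and their sum ranged from 2294227 to 2667695 and from 2900403 to 3268868. Ly6g, a defining neutrophil marker, did not pass the filter on low counts, so its change was not tested. The part of these cells in the falls of Oit3, Clec4g, Dnase1l3, Kdr and the other sinusoidal endothelial genes was not tested. After DEX in NaCl mice 0 of the 11 Kupffer cell markers were called and 3 were lower without overlap, against 7.15% of all tested genes called lower and 20.3% lower without overlap.

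The genes whose pattern over the 12 libraries was nearest to that of each member were found by the root mean square (RMS) difference of centred log2 CPM, for the 7 members with at least 100 normalized counts on average. Nearest to Lyve1 were Hdc (RMS 0.256), Insc (0.293) and Fabp4 (0.319). Nearest to Kdr were Gse1 (0.174), Irf5 (0.216) and Gatm (0.277). Oit3 was nearest to Ptgs1 (0.166), Dnaaf9 (0.169) and Hipk2 (0.171), and Clec4g to Orai3 (0.135), Wdr7 (0.136) and Plxnc1 (0.137), the last of which is on the sinusoidal endothelial list.

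Dnase1l3 was nearest to Asb13 (RMS 0.0979), Cstf3 (0.0992) and the Kupffer cell marker Clec4f (0.103). Stab1 was nearest to Copb2 (0.166), Spcs2 (0.168) and Txlna (0.168), and Stab2 to Cd55 (0.163), Abr (0.195) and Mitf (0.200). The distance of Lyve1 to its nearest gene was the largest of the 7. The 10 genes themselves were left out of the search.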

How the data were processed

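Livers of 12 mice in 4 groups of 3 were measured. Per the labels and methods, the authors prepared stranded mRNA libraries, mapped the reads to mm39 with STAR 2.7.10b and deposited raw counts per Ensembl gene, as whole numbers without normalization. Which strand column was counted is not given in the sources used here, and Stab1 and Oit3 overlap the protein-coding genes Nt5dc2 and Pla2g12b on the other strand. Symbols and positions were taken from GENCODE vM39 on GRCm39, and 665 of 55414 genes had no symbol. Nothing says more of the replicates than 1 mouse per library, and mice of a group differed beyond counting error, which alone gives a mean chi-square of about 1 over genes, against 18.3 to 89.5 found. The highest values, 89.5 and 71.4, both involved FeSO4/PBS mouse 1, while FeSO4/PBS mice 2 and 3 gave 24.0.

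The 12 libraries were fitted in 1 model with a mean per group (R 4.3.3, edgeR 4.0.16 with limma 3.58.1, filterByExpr, TMM, prior count 0.125), and p-values were adjusted by Benjamini-Hochberg over 13857 genes. Normalized counts are counts divided by each library's TMM-adjusted size relative to the mean. With 3 mice against 3 an exact permutation test cannot go below 0.1, so none is given. DESeq2 1.42.0, other scalings and filters, a replicate block and each mouse left out were alternatives. Figures were drawn with matplotlib 3.10.9. The genes of the other lists named in the text are, per list and comparison, taken from the 2 called genes with the largest absolute LFC and a mean of at least 50 normalized counts in the higher group, and Gata4, Pecam1 and Cdh5. Ly6g, and Csf3r for the FeSO4 comparison, were named after their values were seen. The 10 genes, the lists and this rule were chosen with earlier results of these data known.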

Additional observations from a re-analysis of the deposited data

Results flagged for a closer look

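These results were singled out because the DEX response in FeSO4 mice differed from that in NaCl mice by the interaction test (edgeR FDR of 0.05 or less). Among the 10 genes the difference of LFCs was -2.13 for Lyve1 and 1.78 for Kdr. Among the named genes of the other lists it was 1.40 for Gata4 (edgeR FDR 0.0458), -0.85 for Maf (edgeR FDR 0.0387), -1.26 for Nos3 (edgeR FDR 0.0124) and 1.89 for Dll4 (edgeR FDR 0.0403). It was 2.65 for Lgr5 (edgeR FDR 0.0112), 2.13 for Rnf43 (edgeR FDR 0.00145) and 2.28 for Tbx3 (edgeR FDR 0.00288). The rule that named genes of the other lists also used the LFCs of this test. Of the 10 Wnt and R-spondin receptor genes, 2 were called higher and 1 lower, with a lowest difference of -1.11. The shares over all tested genes were 2.99% higher and 3.2% lower. The calls of Lyve1, Nos3, Lgr5, Rnf43 and Tbx3 held with each mouse left out.

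The calls of Dll4, Gata4 and Maf did not. Dll4 held in 2 of 12 such fits, and its edgeR FDR was 0.0508, 0.0507 and 0.117 without NaCl/PBS mouse 1, 2 or 3, 0.0895 and 0.0932 without NaCl/DEX mouse 1 or 3, 0.0561 and 0.0715 without FeSO4/PBS mouse 1 or 3, and 0.0505, 0.0777 and 0.102 without FeSO4/DEX mouse 1, 2 or 3. Gata4 held in 3 of 12, and its edgeR FDR was 0.0791, 0.0809 and 0.102 without NaCl/PBS mouse 1, 2 or 3, 0.111, 0.0636 and 0.0952 without NaCl/DEX mouse 1, 2 or 3, 0.0661 without FeSO4/PBS mouse 3, and 0.112 and 0.0982 without FeSO4/DEX mouse 2 or 3. Maf held in 4 of 12, and its edgeR FDR was 0.0964 and 0.0679 without NaCl/PBS mouse 1 or 2, 0.0821 and 0.0900 without NaCl/DEX mouse 1 or 2, 0.0548 and 0.0771 without FeSO4/PBS mouse 2 or 3, and 0.0646 and 0.0717 without FeSO4/DEX mouse 1 or 2. With the replicate number as a block, the edgeR FDR was 0.0762 for Gata4 and 0.0573 for Dll4. It was 0.0507 for Gata4 with DESeq2 size factors and 0.0994 for Maf with library size alone. Kdr held in 5 of 12.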

How the results depend on the processing

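Library size as the only scaling moved the median LFC of all tested genes to -0.34 after FeSO4 and to -0.18 after DEX in NaCl mice. With it, 7 of the 10 genes were called lower after FeSO4 and 0 higher in FeSO4/DEX against NaCl/DEX livers. The calls gained after FeSO4 were Stab1, Stab2 and Wnt9b. The share of all tested genes called with this scaling was not taken, so the 7 of 10 has no background. The LFC with it was -0.29 for Rspo3 after FeSO4 and -0.026 for Oit3 after DEX in NaCl mice. It was -0.012 for Rspo3 in FeSO4/DEX against FeSO4/PBS and -0.042 for Wnt2 in FeSO4/DEX against NaCl/DEX livers. With an LFC beyond 1 required as well, 2 genes were lower after FeSO4, 1 lower after DEX in NaCl mice, and 0 higher and 1 lower in FeSO4/DEX against NaCl/DEX livers. After DEX in NaCl mice 1 gene was lower with DESeq2 size factors, with no filter on low counts and with the libraries of the comparison alone. With no filter, 1 gene was higher in FeSO4/DEX against NaCl/DEX livers. The interaction of Oit3 was -0.036 with DESeq2 size factors, -0.041 with DESeq2 and -0.014 with no filter, and Rspo3 was at -0.00095 in FeSO4/DEX against FeSO4/PBS livers with DESeq2 size factors. Whether the replicate numbers pair the mice was not settled. Same-numbered mice of different groups had correlations of -0.12 to 0.17 (18 pairs), and the others -0.24 to 0.20 (36 pairs). Of 12 libraries, 6 correlated best with their own number, and these were the NaCl libraries. Between NaCl/PBS and NaCl/DEX livers the same-numbered correlations were 0.169, 0.158 and 0.0567. The replicate block left 1 gene lower after DEX in NaCl mice and changed no other count of the 10 genes.

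With 1 mouse left out in turn, 0 to 2 genes were lower after DEX in NaCl mice, 0 to 2 higher in FeSO4/DEX against NaCl/DEX livers and 0 to 1 higher in the interaction. The LFC of Rspo3 after FeSO4 ran from -0.023 to 0.15. In FeSO4/DEX against FeSO4/PBS livers it ran from -0.10 to 0.40 for Oit3, -0.32 to 0.30 for Wnt2, -0.076 to 0.087 for Rspo3, -0.44 to 0.31 for Stab2, -0.20 to 0.081 for Dnase1l3, -0.73 to 0.10 for Wnt9b, -0.40 to 0.085 for Stab1 and -0.32 to 0.012 for Clec4g. In FeSO4/DEX against NaCl/DEX livers it ran from -0.54 to 0.11 for Wnt9b, -0.28 to 0.32 for Wnt2 and -0.47 to 0.095 for Kdr. The interaction ran from -0.25 to 0.26 for Oit3, -0.23 to 0.52 for Stab2, -0.074 to 0.24 for Clec4g, -0.053 to 0.22 for Dnase1l3 and -0.086 to 0.51 for Wnt2. The cause of these shifts was not tested. The FeSO4 calls of Lyve1, Kdr, Oit3, Clec4g and Dnase1l3 held with each mouse left out. Depth limits Wnt9b most, with 7 to 56 reads per library.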
